A study of Mus musculus with 9 samples.

Results

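MicroRNA precursors were examined in the infarcted mouse heart through the clusters of a whole-transcriptome array that carry a microRNA name. Each transcript cluster gathers the probes that the array design assigns to 1 gene or transcript, and a cluster was taken when its only gene symbol in the platform annotation began with Mir and a digit or with Mirlet7. This gave 605 of 65534 clusters, with 578 different symbols. Another 541 clusters carry a microRNA symbol among several symbols and were left out, which removed Mir126a, Mir21a, Mir155, Mir223, Mir145a and the pair Mir206 and Mir133b. Among the 605, 5 carry the name of a microRNA host transcript (Mir1a-1hg, Mir99ahg, Mir100hg, Mir124-2hg and Mir9-3hg). Chromosome 2 holds 106 of the clusters, the X chromosome 70 and chromosome 12 another 59.

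The hearts came from male C57BL/6 mice, 8 weeks old, in which the left anterior descending coronary artery was tied for 45 min and then reopened for 24 h. Tissue was taken from the ischemia zone (IZ), the border zone (BZ) and the non-ischemia zone (NIZ), and 100 ng of total RNA of each of 9 samples went on its own Affymetrix Mouse Transcriptome Assay 1.0 array, with 3 arrays per zone. Every zone belongs to a heart with ischemia and reperfusion (I/R), so NIZ is a remote zone of an injured heart and there is no sham group. The study describes 3 mice, but the sample labels do not tie an array to a mouse, and the p-values below measure only the spread between these samples.

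A microRNA is first transcribed as a long primary transcript, cut in the nucleus to a hairpin precursor and then trimmed in the cytoplasm to the short mature strand. The mature strand finds its target mRNAs mainly through its seed, the run from base 2 to base 8. In heart muscle, miR-1 and miR-133a are made from shared primary transcripts and control growth, conduction and proliferation, while miR-208a, miR-208b and miR-499 lie in introns of the myosin heavy chain genes Myh6, Myh7 and Myh7b. The array labels cDNA made from total RNA, so its signal reports primary and precursor transcripts and not the mature strands.

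The mature strands of the heart muscle microRNAs encoded in myosin genes show how alike they are. They are given 5′ to 3′ with the seed in capitals, as are all mature strands below, from RefSeq on GRCm38.p6. RefSeq hairpins were matched to 439 of the 605 clusters by symbol. miR-208a-3p lies at chr14:54949072-54949093 on the minus strand, miR-208b-3p at chr14:54975710-54975731 on the minus strand and miR-499-5p at chr2:155622893-155622913 on the plus strand.
miR-208a-3p: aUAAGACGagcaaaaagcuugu
miR-208b-3p: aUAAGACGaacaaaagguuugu
miR-499-5p: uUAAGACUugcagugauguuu
The seeds of miR-208a and miR-208b share 7 of 7 bases, and 3 of their 22 bases differ over the whole strand. The seeds of miR-208a and miR-499 share 6 of 7 bases.

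A second set holds some of the microRNAs named in the zone comparisons below, with Mirlet7c-1 and Mir762 as the main examples of a lower and a higher mean. Mir143 and Mir378a are named without sequence. Mirlet7c-1, which gives let-7c-5p, lies at chr16:77599672-77599693 on the plus strand, less than 10 kb from Mir99a at chr16:77598940-77598961, and Mirlet7e lies at chr17:17830366-17830387. Mir30e lies at chr4:120772660-120772681 on the minus strand and Mir27a at chr8:84208727-84208747 on the plus strand. Mir15a lies at chr14:61632075-61632096 on the minus strand, and Mir7-2 and Mir762 at chr7:78888295-78888317 and chr7:127708534-127708555, both on the plus strand.
let-7c-5p: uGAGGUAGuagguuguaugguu
let-7e-5p: uGAGGUAGgagguuguauaguu
miR-99a-5p: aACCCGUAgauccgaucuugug
miR-30e-5p: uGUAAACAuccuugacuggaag
miR-27a-3p: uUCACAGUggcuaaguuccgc
miR-15a-5p: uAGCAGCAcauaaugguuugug
miR-7a-5p: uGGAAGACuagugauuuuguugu
miR-762: gGGGCUGGggccgggacagagc
let-7c and let-7e have the same seed and differ in 2 of 22 bases. The hairpin of Mirlet7c-1, at chr16:77599657-77599750, is printed with both mature strands in capitals.
Mirlet7c-1 hairpin: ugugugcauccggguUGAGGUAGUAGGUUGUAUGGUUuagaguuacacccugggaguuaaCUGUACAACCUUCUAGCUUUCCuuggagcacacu

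The third set holds the mature strands of those of the 12 brightest clusters that RefSeq matched here. Mir669e and Mir669m-2 are named without sequence. None of them is on the heart muscle list.
miR-3473a: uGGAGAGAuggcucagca
miR-3470b: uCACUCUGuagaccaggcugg
miR-1954: aCUGCAGAgugagacccuguu
miR-3473f: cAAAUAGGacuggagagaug
miR-1191a: cAGUCUUAcuauguagcccua
miR-1195: uGAGUUCGaggccagccugcuca
miR-3471: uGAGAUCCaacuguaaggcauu
miR-467f: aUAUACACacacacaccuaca
miR-703: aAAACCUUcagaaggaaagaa
RefSeq places them at chrX:162874920-162874937, chr16:44013885-44013905, chr2:32652342-32652362, chr1:106546536-106546555, chr7:27205615-27205635, chr17:70860558-70860580, chr4:10845585-10845606, chr11:69635419-69635439 and chr5:98475616-98475636, in that order. The hairpins of Mir3473a (chrX:162874918-162874995, minus strand) and Mir1954 (chr2:32652329-32652414, plus strand) are set beside that of Mir208a (chr14:54949060-54949142, minus strand), with mature strands in capitals, because the first pair are among the brightest clusters and Mir208a, from the brightest of the measured host genes, is not.
Mir3473a hairpin: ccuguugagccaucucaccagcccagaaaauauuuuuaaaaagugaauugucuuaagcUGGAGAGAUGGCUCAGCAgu
Mir1954 hairpin: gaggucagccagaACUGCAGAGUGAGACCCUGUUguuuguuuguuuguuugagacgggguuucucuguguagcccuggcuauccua
Mir208a hairpin: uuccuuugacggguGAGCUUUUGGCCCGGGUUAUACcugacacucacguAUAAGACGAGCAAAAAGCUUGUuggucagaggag

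All values below are log2 signals as the authors made them. The array medians over all clusters lay between 4.19 and 4.29. One tag of the labels names brain, while their source is heart; the cardiomyocyte marker list had zone means of 11.49 to 11.55 and the brain list 5.04 to 5.06. In these bulk samples, fewer cells of a type and less RNA per cell cannot be told apart. The neutrophil marker list had a mean of 7.52, 7.55 and 8.28 in IZ, 9.25, 8.09 and 6.38 in BZ and 9.13, 7.99 and 5.98 in NIZ for replicates 1, 2 and 3. The atrial list stood at 10.26 in NIZ replicate 2 and 8.98 in BZ replicate 2, against 7.16 to 7.65 on the other arrays.

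MicroRNA precursors were dim in these hearts. The median of the 605 clusters over 9 arrays was 3.69 (interquartile range 2.78 to 5.49), against 4.22 (3.18 to 6.02) over all clusters. Of the 605, 349 (57.7%) lay below the median of all clusters, and 21 (3.47%) lay above a log2 signal of 8, against 5897 (9.00%) of all clusters. Their pooled SD within zones had a median of 0.116, against 0.101 over all clusters. A value occurred on more than 1 of the 9 arrays in 375 of the microRNA clusters (62.0%) and in 71.4% of all clusters, and 34 microRNA clusters shared all 9 values with another one, so the 605 hold 579 distinct profiles.

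**Figure D1:**
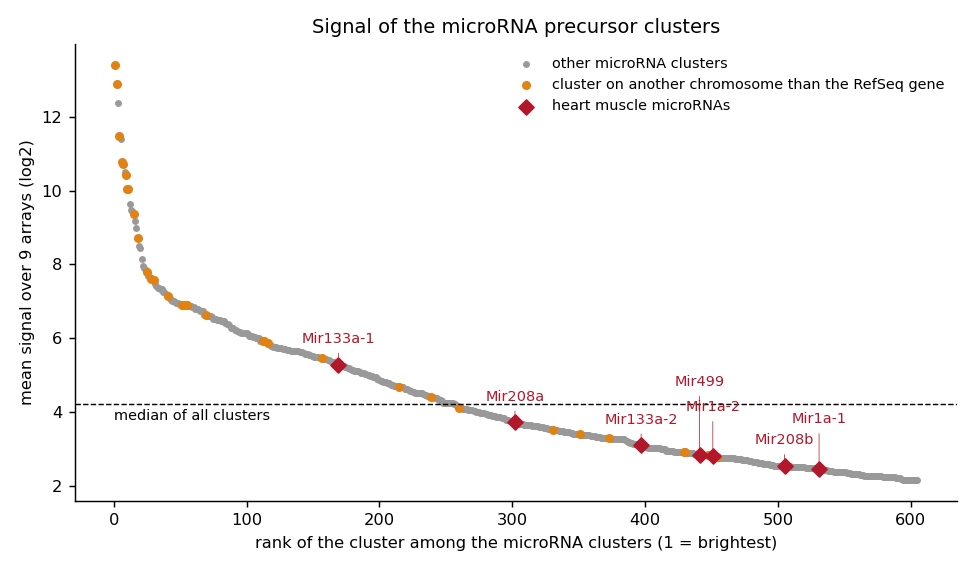
Mean log2 signal over 9 arrays (vertical axis) against rank (horizontal axis, 1 is brightest) for the 605 microRNA clusters, with the 7 measured heart muscle microRNAs as named diamonds, the 34 clusters on another chromosome than their RefSeq gene in orange and the median of all clusters (4.22) as a dashed line. Mir133a-1, at rank 169, is the only heart muscle microRNA above that line.

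The brightest cluster was Mir3473a at 13.41, with a range of only 0.18 over the 9 arrays. It was followed by Mir3470b at 12.89, Mir1954 at 12.38, Mir3473f at 11.48 and a second Mir3470b cluster at 11.40. Mir1191 (10.76), Mir669e (10.73), Mir1195 (10.49), Mir3471-1 (10.43), Mir467f (10.05), Mir669m-2 (10.03) and Mir703 (9.63) completed the first 12 places. These are microRNA entries found by sequencing, with no role in heart muscle known well enough to state.

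Where the cluster lies was compared with where RefSeq places the microRNA of that name. The chromosome in the cluster identifier was the RefSeq chromosome for 570 clusters and another chromosome for 34, and 1 (Mir446q) had no RefSeq entry. The 34 misplaced clusters had a median of 6.90 (interquartile range 4.47 to 9.19), against 3.64 (2.75 to 5.29) for the 570. They made up 8 of the 12 brightest clusters and 8 of the 11 above 10. The Mir3473a cluster, for example, is on chromosome 15 and RefSeq has the gene on X, and the Mir1191 cluster is on chromosome 5 and RefSeq has the gene on chromosome 7. The 5 clusters named Mir684-1 (chosen after their values were seen) lie on chromosomes 7, X, 11, 5 and 10, share all 9 values, and have their RefSeq gene on chromosome 2. How these clusters came by their names was not tested.

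Among the 570 clusters on the RefSeq chromosome, the brightest were Mir1954 at 12.38, the second Mir3470b cluster at 11.40, Mir1195 at 10.49, Mir703 at 9.63, Mir3472 at 9.47 and Mir692-1 (chosen after its values were seen) at 9.44. The first well-studied name was Mir139, at 8.15 and placed rank 11, which lies in an intron of the phosphodiesterase gene Pde2a (9.32). Mir320, which is cut from a short hairpin without the usual nuclear step, stood at 7.68.

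Hairpin sequence was set beside these levels. Across 431 hairpins, the GC content and the cluster signal had a Spearman correlation of 0.66, and across the 418 whose cluster lies on the RefSeq chromosome it was 0.69, while hairpin length gave 0.16. The points are different genes measured on the same 9 arrays, so this is a description across genes. Of the placed hairpins, the 69 under 40% GC had a median signal of 2.47, the 154 from 40 to 50% had 3.03, the 144 from 50 to 60% had 4.50 and the 51 of 60% or more had 6.15. The part of base composition in the signal was not tested.

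**Figure D2:**
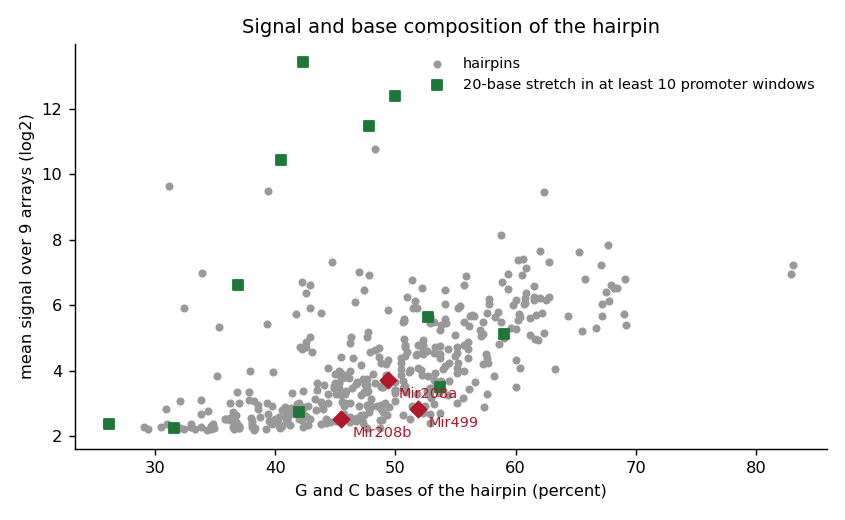
Mean log2 signal over 9 arrays (vertical axis) against GC content of the RefSeq hairpin in percent (horizontal axis), 1 point per microRNA, with squares for hairpins that have a 20-base stretch in at least 10 promoter windows and diamonds for Mir208a, Mir208b and Mir499. The signal is higher at higher GC, with medians of 2.47 under 40% and 6.15 at 60% or more among placed hairpins, and 4 of the 9 hairpins above 8 are squares. Of those 4, only Mir1954 has its cluster on the RefSeq chromosome.

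Some of the bright hairpins also share sequence with promoter windows of other genes. The promoter windows of 32836 genes that are not microRNAs were searched on both strands for any 20-base stretch of each hairpin. Of the 9 hairpins above a signal of 8, 4 had such a stretch in 10 or more windows: Mir3473f in 93 (0.283% of the windows), Mir1954 in 23 (0.0700%), Mir3473a in 17 (0.0518%) and Mir3471-1 in 12 (0.0365%). Of the other 422 hairpins, 7 did, and 390 had none in any window. Mir208a, Mir499 and Mirlet7c-1 had none. The Mir3473f, Mir3473a and Mir3471-1 clusters lie on another chromosome than the hairpin searched, so their signal may not be that of the hairpin. Of the 4 named above, only Mir1954 has its cluster on the RefSeq chromosome.

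Heart muscle microRNAs did not stand at the top of this ranking. Of the 8 listed as heart muscle microRNAs, 7 had a cluster of their own, since Mir133b shares its cluster with Mir206. In order of mean signal they were Mir133a-1 at 5.28, Mir208a at 3.71, Mir133a-2 at 3.09, Mir499 at 2.84, Mir1a-2 at 2.79, Mir208b at 2.53 and Mir1a-1 at 2.46. Their ranks among the 605 were 169, 302, 397, 441, 451, 505 and 531. Mir133a-1 was at percentile 66.7 of all clusters and the other 6 lay below the median of all clusters, 5 of them under the lower quartile of 3.18. Mir133a-1 lay above Mir208a by 1.57, with no overlap between their ranges over the 9 arrays, while the ranges of all other neighbours in this order overlapped.

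Signals of different clusters come from different probes, so this order is one of signal and not of abundance. Set beside hairpins within 5 points of its own GC content, Mir208a (49.4% GC) lay at 3.71 against a median of 3.64 for 185 hairpins, of which 85 were brighter. Mir499 (51.9%) lay at 2.84 against 3.98 for 164 hairpins, of which 145 were brighter. Mir208b (45.5%) lay at 2.53 against 3.28 for 158 hairpins, of which 134 were brighter. Mir139 (58.8%) was at the other end, at 8.15 against 5.36 for 95 hairpins, of which 1 was brighter. The heart muscle microRNAs Mir133a-1, Mir133a-2, Mir1a-1 and Mir1a-2 had no matched hairpin, so they were not compared in this way.

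MicroRNA precursors of tissues other than heart gave a second yardstick. Of 30 microRNAs listed as markers of liver, brain, pancreas, gut, epithelium and stem cells, 19 had a cluster of their own, with a median of 3.03. Mir194-2 (6.92) and Mir194-1 (5.53), known from gut and liver, and Mir375 (6.05), known from pancreatic islets, were brighter than every heart muscle microRNA. This comparison was not matched for GC content. The hairpins of Mir375 (67.2% GC) and Mir194-2 (60.5%) fall in the range of 60% or more, where placed hairpins had a median of 6.15. That of Mir194-1 has 50.7%. Mir208a was exceeded by 4 of the 19, Mir499 by 12 and Mir1a-1 by 17. Mir122, the most abundant microRNA of liver, was at 3.57, and Mir302b of stem cells at 2.23.

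The myosin host genes were far brighter than the microRNAs in their introns. Myh6, the main myosin heavy chain of the adult mouse ventricle, stood at 13.26 against 3.71 for Mir208a. Myh7, the slow and fetal form, stood at 10.09 against 2.53 for Mir208b, and Myh7b at 6.64 against 2.84 for Mir499. Of 39 pairs of an intronic microRNA and its host, 29 were measured on both sides, and the host was brighter in 27. The exceptions were Mir128-2 (3.66) in Arpp21 (3.47) and Mir486 (6.86) in Ank1 (6.17). Of the 29, 28 hosts and 11 microRNAs lay above the median of all clusters. The host transcript Mir1a-1hg (chosen after its values were seen), from which Mir1a-1 is cut, stood at 5.59 against 2.46 for the hairpin cluster.

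No zone difference in the heart muscle microRNAs passed the adjusted threshold, and the largest was that of Mir208a in IZ. It was also the lowest IZ difference of all 605 clusters, but Mir208a had the widest spread within zones of the list (pooled SD 0.52). Mir208a was at 3.32, 3.30 and 3.21 in IZ, at 3.25, 3.18 and 4.49 in BZ and at 3.64, 4.52 and 4.47 in NIZ. All IZ values lay below all NIZ values, while BZ replicate 3 lay among the NIZ values. The difference was −0.93 in IZ against NIZ (SE 0.37, n = 3 arrays per zone; 1.91-fold lower), with an unadjusted p of 0.0391 and an adjusted p of 0.999 in limma, and −0.57 (SE 0.37) in BZ, or −0.99 without BZ replicate 3. The exact permutation test (two-sided) gave p = 0.1 for IZ, the smallest that 3 against 3 arrays allow. Its host Myh6 differed by −0.01 and −0.12 in the same comparisons, with values of 13.13, 13.30 and 13.45 in IZ and 13.19, 13.37 and 13.36 in NIZ.

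Mir1a-1 and Mir133a-2 share one primary transcript, and Mir1a-2 and Mir133a-1 another. Mir1a-1 was at 2.28, 2.43 and 2.33 in IZ, 2.18, 2.34 and 2.66 in BZ and 2.63, 2.66 and 2.58 in NIZ. IZ lay below NIZ without overlap, by −0.28 (SE 0.11), with an unadjusted p of 0.0402 and an adjusted p of 0.999 in limma. Mir133a-1 was at 5.03, 5.34 and 5.33 in IZ, 4.63, 5.11 and 5.16 in BZ and 5.13, 5.68 and 6.08 in NIZ. Its zones overlapped, with differences of −0.39 in IZ and −0.66 (SE 0.25, unadjusted p 0.0297, adjusted p 0.854 in limma) in BZ. The IZ difference was −0.65 without NIZ replicate 1 and −0.17 without NIZ replicate 3.

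The remaining heart muscle microRNAs differed little between zones. Mir1a-2 differed by −0.27 in IZ against NIZ, and its highest value, 3.35, was NIZ replicate 3, without which the difference was −0.08. Mir133a-2 lay between 2.89 and 3.64 with a difference of −0.06 in IZ, Mir208b between 2.32 and 2.75 with 0.05, and Mir499 between 2.73 and 2.96 with −0.05. Over the list, 6 of 7 were lower in IZ than in NIZ (median −0.27) and 5 of 7 lower in BZ (median −0.23). Without NIZ replicate 3, the IZ median was −0.08. Over all clusters, 58.5% were lower in IZ and 47.7% in BZ, and of the microRNA clusters 67.6% and 49.8%. Both comparisons use the same NIZ arrays.

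**Figure D3:**
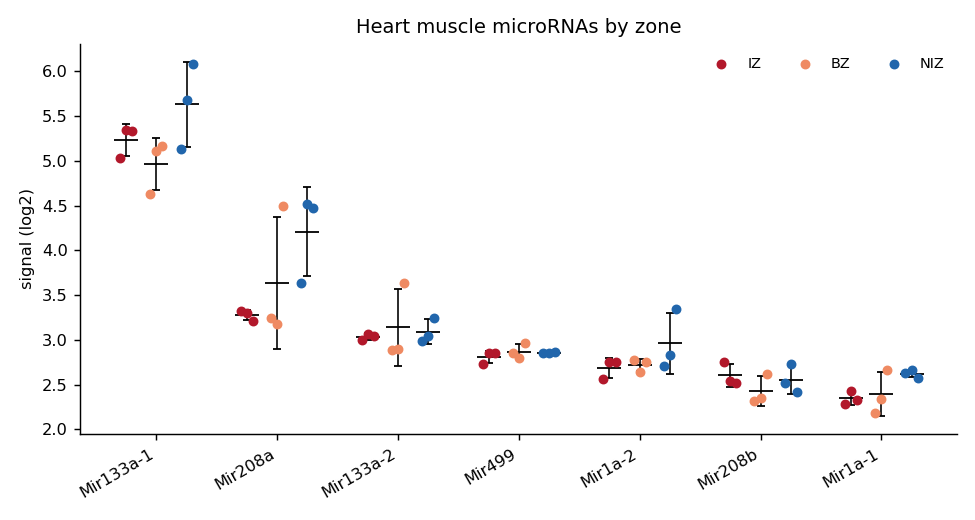
Log2 signal (vertical axis) of the 7 heart muscle microRNA clusters by zone, with 1 point per array, a line at the mean of 3 arrays and bars of 1 SD. Mir208a shows IZ values of 3.21 to 3.32 below NIZ values of 3.64 to 4.52, and the zones of Mir208b and of Mir499 overlap.

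Over all microRNA clusters, no zone difference passed the adjusted threshold. limma called 0 of 605 at an adjusted p of 0.05 in IZ against NIZ, in BZ against NIZ and in IZ against BZ (0% of all clusters in each), and the methods' test called 0 after adjustment. At an unadjusted p of 0.05 in limma, 3 microRNA clusters were higher and 21 lower in IZ than in NIZ, which is 0.496% and 3.47% of the 605, against 1.24% and 2.72% of all clusters. In BZ against NIZ, 12 were higher and 22 lower (1.98% and 3.64%), against 2.19% and 3.09% of all clusters. In IZ against BZ, 13 were higher and 25 lower (2.15% and 4.13%), against 1.26% and 2.58%. The methods' test gave 1, 3 and 3 at its unadjusted threshold (0.165%, 0.496% and 0.496%), against 0.62%, 0.876% and 0.682% of all clusters.

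Zones without overlap were counted in the same way. In IZ against NIZ, 4 microRNA clusters were higher and 29 lower without overlap (0.661% and 4.79%), against 1.78% and 4.55% of all clusters. In BZ against NIZ, 11 were higher and 26 lower (1.82% and 4.3%), against 2.51% and 3.72%. In IZ against BZ, 10 were higher and 30 lower (1.65% and 4.96%), against 2.24% and 3.53%. Of these shares, that of the clusters higher in IZ than in NIZ was the farthest below its background, and the differences in share were not tested.

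**Figure D4:**
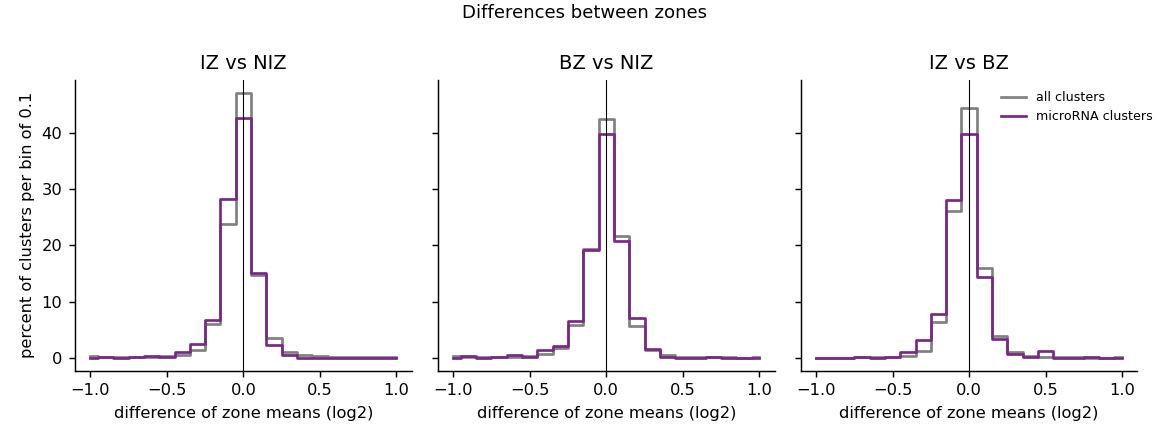
Percent of clusters per bin of 0.1 (vertical axis) by difference of zone means in log2 (horizontal axis) for the 605 microRNA clusters and for all 65534 clusters, in IZ against NIZ, BZ against NIZ and IZ against BZ. The outermost bins also hold all differences beyond 1, and both distributions centre near 0, with medians of −0.031, 0.000 and −0.029 for the microRNAs.

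The median difference of the microRNA clusters was −0.031 in IZ against NIZ, 0.000 in BZ against NIZ and −0.029 in IZ against BZ, beside −0.014, 0.003 and −0.017 over all clusters. In IZ, 195 were higher and 409 lower than in NIZ (67.6% lower, against 58.5% of all clusters). The share within 0.25 log2 was 95.2%, 93.6% and 93.4% in the 3 comparisons, against 95.4%, 94.9% and 96.9% of all clusters. Single differences ran from −0.93 to 0.28 in IZ against NIZ, from −0.88 to 0.72 in BZ against NIZ and from −0.71 to 0.83 in IZ against BZ.

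The let-7 family, whose members hold back growth and metabolic genes in differentiated cells, had lower means in both injured zones for most members, though no member was called. All 12 measured members had a lower mean in IZ than in NIZ (median −0.10) and 10 of 12 a lower mean in BZ (median −0.08). Beside them, 58.5% and 47.7% of all clusters and 67.6% and 49.8% of the microRNA clusters were lower. Both comparisons use the same NIZ arrays. Some members lie in runs of neighbours, such as Mirlet7d, Mirlet7f-1 and Mirlet7a-1, and cannot be counted as independent. At an unadjusted p of 0.05 in limma, 2 of the 12 were lower in IZ and 3 in BZ, beside 2.72% and 3.09% of all clusters, and none was called. Under median centring 10 and under quantile normalization 11 of 12 were lower in IZ, and without NIZ replicate 2 it was 7.

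Mirlet7c-1 led the family. It was at 3.50, 3.61 and 3.37 in IZ, at 3.30, 2.97 and 3.61 in BZ and at 4.35, 4.31 and 3.83 in NIZ. Every NIZ value lay above every IZ and BZ value. The difference was −0.67 in IZ (SE 0.19, 1.59-fold lower, unadjusted p 0.00836, adjusted p 0.999 in limma) and −0.87 in BZ (SE 0.19, 1.83-fold lower, unadjusted p 0.00202, adjusted p 0.854).

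Mirlet7e was at 4.88, 5.28 and 5.18 in IZ, 4.99, 5.21 and 4.93 in BZ and 5.44, 5.22 and 5.31 in NIZ. BZ lay below NIZ without overlap, by a margin of 0.01 between BZ replicate 2 and NIZ replicate 2, and the difference of means was −0.28 (SE 0.12, unadjusted p 0.0473, adjusted p 0.854 in limma). Mirlet7c-2, which gives the same mature strand as Mirlet7c-1, differed by −0.24 in IZ and −0.20 in BZ. Mirlet7d, the brightest of the family at 7.32, differed by −0.01 and −0.05.

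Grouping by the seed GAGGUAG in place of the name gave 12 clusters (10 let-7 genes, Mir98 and Mir1961). Of these, 12 were lower in IZ and 9 in BZ, with medians of −0.11 and −0.08. The group holds only symbols for which a RefSeq mature strand with this seed was matched. It lacks Mirlet7a-2, a measured member of the let-7 list that differed by −0.05 in IZ and −0.05 in BZ. Its absence does not show that its seed differs. Members of a seed group are separate genes on different chromosomes or in neighbouring hairpins, and neighbours may share a primary transcript.

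Mir99a, the neighbour of Mirlet7c-1 in the Mir99ahg transcript, was chosen after its values were seen. It was at 4.66, 4.37 and 4.43 in IZ, 4.15, 4.24 and 4.51 in BZ and 5.31, 4.92 and 4.11 in NIZ. NIZ replicates 1 and 2 were the highest values and NIZ replicate 3 the lowest of all, so the zones overlapped, with differences of −0.29 and −0.48 (SE 0.28).

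Among microRNAs of vessels, Mir143 had the smallest p. It is made with Mir145a in smooth muscle cells and supports their contractile state. Mir143 was at 4.77, 4.72 and 4.87 in IZ, 4.88, 4.83 and 4.76 in BZ and 5.32, 5.27 and 4.97 in NIZ. Every NIZ value lay above every value of the other zones, and IZ and BZ overlapped. The difference was −0.40 in IZ (SE 0.09, unadjusted p 0.00294, adjusted p 0.999 in limma) and −0.36 in BZ (SE 0.09, unadjusted p 0.00508, adjusted p 0.854). Without NIZ replicate 3 the IZ difference was −0.51 with an adjusted p of 0.034. That fit called 216 of all clusters (0.33%) in IZ against NIZ and Mir143 alone of the 605 (0.165%).

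The Mir23a, Mir27a and Mir24-2 hairpins are cut from one transcript and act in endothelial cells and vessel growth. Mir27a was at 5.95, 5.91 and 5.90 in IZ, 5.92, 5.43 and 5.96 in BZ and 7.07, 6.23 and 5.75 in NIZ. NIZ replicate 1 stood highest and NIZ replicate 3 lay below all IZ values, so the zones overlapped. The differences in IZ were −0.30 for Mir23a, −0.43 for Mir27a and −0.25 for Mir24-2, and NIZ replicate 1 was the highest of the 9 arrays for each of them. Of the 16 listed vessel microRNAs 7 were measured, and 6 of these were lower in IZ than in NIZ (median −0.25). That stands beside 58.5% of all clusters and 67.6% of the microRNA clusters, and the 6 include Mir23a, Mir27a and Mir24-2 of one transcript. The median was −0.05 in BZ. The mean of the list, with each cluster centred over the 9 arrays, was 0.393, 0.080 and −0.118 in NIZ. In IZ it was −0.132, −0.055 and −0.056, so NIZ replicate 3 lay below IZ replicates 2 and 3.

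Mir30e, an intronic microRNA of the transcription factor subunit gene Nfyc, was at 3.76, 4.15 and 3.54 in IZ, 3.85, 3.76 and 3.88 in BZ and 4.25, 4.05 and 4.45 in NIZ. BZ lay below NIZ without overlap (−0.42, SE 0.16, unadjusted p 0.0303, adjusted p 0.854 in limma), and IZ replicate 2 lay among the NIZ values (−0.43). Mir30c-1 of the same host differed by −0.03 and −0.05, and Nfyc, at 8.86, by 0.01 and 0.04. The miR-30 family had no common direction in IZ, where Mir30a differed by −0.16, Mir30c-2 by −0.03, Mir30b by 0.01 and Mir30d by 0.10.

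MicroRNAs linked to fibroblasts and matrix showed no common shift. The 11 measured of 17 had a median level of 3.97 and median differences of −0.03 in IZ and −0.05 in BZ. Mir29b-1, which targets collagen mRNAs, was at 3.84, 3.90 and 3.81 in IZ, 3.74, 3.77 and 3.62 in BZ and 4.25, 3.93 and 3.79 in NIZ. BZ was the lowest zone, without overlap with the others, at −0.28 against NIZ (SE 0.11, unadjusted p 0.0325, adjusted p 0.854 in limma).

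MicroRNAs of ischemia and cell death also showed no common shift. The 14 measured of 20 had a median level of 4.56 and median differences of −0.03 in IZ and −0.01 in BZ. The median of IZ against BZ was −0.05. At an unadjusted p of 0.05 in limma, 1 was higher and 2 lower in IZ than in NIZ, beside 1.24% and 2.72% of all clusters. In IZ against BZ, 0 were higher and 1 lower, beside 1.26% and 2.58%. None was called. Mir378a, also of this list, is given with IZ and BZ below. Mir210, which hypoxia-inducible factor switches on, was at 6.91, 6.67 and 6.79 in IZ, 6.52, 6.81 and 7.04 in BZ and 6.70, 7.01 and 6.77 in NIZ, and the zones overlapped (−0.04 and −0.03, SE 0.14). Mir320 was at 7.70, 7.39 and 7.69 in IZ, 7.55, 7.70 and 7.71 in BZ and 7.76, 7.84 and 7.81 in NIZ. Both injured zones lay below NIZ without overlap, by −0.21 and −0.15 (SE 0.09, adjusted p 0.999 and 0.854 in limma).

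Leukocyte and inflammation microRNAs were measured for 9 of 14, with a median level of 4.66 and median differences of −0.02 in IZ and 0.04 in BZ. Mir142, which marks blood-forming cells, was at 4.41, 4.59 and 4.38 in IZ, 5.36, 4.30 and 4.52 in BZ and 5.15, 5.06 and 4.14 in NIZ. Its values spread widely within BZ and NIZ, with differences of −0.32 and −0.06 (SE 0.34). Mir3088, chosen after its values were seen, was at 6.48, 6.00 and 6.93 in IZ, 7.16, 6.37 and 5.81 in BZ and 7.24, 6.34 and 5.79 in NIZ. Its order of arrays within BZ and within NIZ is that of the neutrophil marker list above, with replicate 1 highest and replicate 3 lowest. Within IZ, replicate 3 was highest in both, but replicate 2 was lowest for Mir3088 and replicate 1 for the list. Mir142 had the order of the list in NIZ but not in BZ, where its replicate 2 was lowest. How many other microRNA clusters have this order was not counted, so no conclusion is drawn from the match. The part of leukocyte content in these values was not tested.

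Lower in IZ without overlap were also Mir6354 and Mir3962, for which no role is given here. Mir6354 was at 2.98, 3.10 and 3.08 in IZ, 3.92, 3.26 and 3.24 in BZ and 3.63, 3.50 and 3.77 in NIZ, a difference of −0.58 (SE 0.18, adjusted p 0.999 in limma) from NIZ. Its cluster lies on chromosome 11 and RefSeq has the gene on chromosome 1. Mir3962 differed by −0.37 in IZ (−0.20 without NIZ replicate 2), and Mir350 by −0.34 in BZ (−0.21 without NIZ replicate 1).

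**Figure D5:**
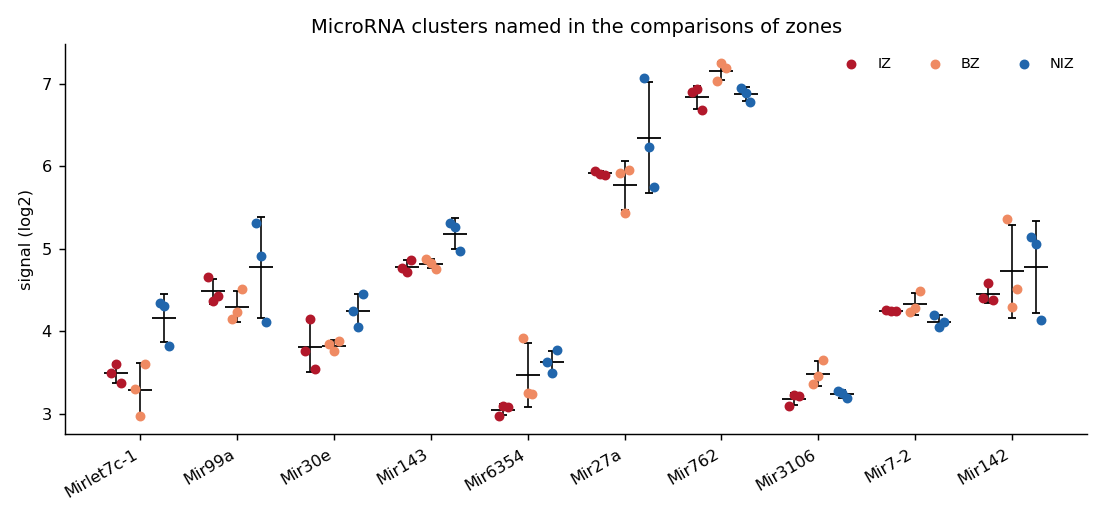
Log2 signal (vertical axis) by zone of microRNA clusters named for their zone differences, with 1 point per array, a line at the mean of 3 arrays and bars of 1 SD. For Mirlet7c-1 and Mir143, the 3 NIZ arrays lie above all IZ and BZ arrays, and for Mir762 and Mir3106 the 3 BZ arrays lie above all others.

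Among clusters above NIZ without overlap, the differences were small. Of the 4 clusters above NIZ without overlap in IZ, those named here are Mir15a, Mir1198 and Mir7-2, with differences of 0.17, 0.14 and 0.13. Each is the brightest cluster of its symbol. Without NIZ replicate 1 the Mir15a difference was 0.07, and without NIZ replicate 3 that of Mir1198 was 0.09. Mir15a, which represses cell cycle genes, was at 5.76, 5.76 and 5.67 in IZ, 5.72, 5.29 and 5.62 in BZ and 5.36, 5.65 and 5.67 in NIZ, so IZ replicate 3 and NIZ replicate 3 lay side by side (SE 0.12, adjusted p 0.999 in limma). Mir7-2 is a gene for miR-7a, known from pancreatic islets and brain. It was at 4.26, 4.25 and 4.25 in IZ, 4.24, 4.28 and 4.49 in BZ and 4.20, 4.05 and 4.11 in NIZ. Both injured zones lay above NIZ, by 0.13 and 0.21 (SE 0.07).

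The largest differences in BZ above NIZ without overlap were those of Mir762 and Mir3106. Mir762 was at 6.90, 6.94 and 6.68 in IZ, 7.04, 7.25 and 7.19 in BZ and 6.95, 6.89 and 6.78 in NIZ. BZ lay above both other zones without overlap, by 0.29 against NIZ (SE 0.09, unadjusted p 0.0108, adjusted p 0.854 in limma), and IZ differed from BZ by −0.32. Mir3106 was at 3.10, 3.23 and 3.22 in IZ, 3.36, 3.46 and 3.65 in BZ and 3.28, 3.26 and 3.19 in NIZ. It had the same order, with a difference of 0.25 in BZ against NIZ (SE 0.08) and of −0.30 in IZ against BZ. Mir466o and Mir683-2 were 0.22 and 0.17 higher in BZ than in NIZ, and without NIZ replicate 3 the Mir683-2 difference was 0.07.

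Between IZ and BZ, 30 clusters were lower and 10 higher without overlap. The 5 largest of the lower ones were Mir6354 (−0.42), Mir1298 (−0.38), Mir762 (−0.32), Mir128-1 (−0.31) and Mir3106 (−0.30). The 5 largest of the higher ones were Mir1952 (0.28), Mir3472 (0.26), Mir467e (0.20), Mir3471-1 (0.19) and Mir29b-1 (0.14). None passed the adjusted threshold in limma (0.943 or above). The Mir6354 difference was −0.20 without BZ replicate 1, and without IZ replicate 3 those of Mir3472 and Mir467e were 0.12 and 0.13. Mir378a, an intronic microRNA of the metabolic coactivator gene Ppargc1b, was at 5.37, 5.28 and 5.66 in IZ and 5.66, 5.74 and 6.30 in BZ. IZ replicate 3 and BZ replicate 1 were level, and the means differed by −0.47 (SE 0.18), while Ppargc1b differed by −0.11.

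MicroRNA genes often lie in runs cut from one transcript. Of 549 placed clusters, 232 lay in 52 runs with neighbours within 10 kb. The longest runs held 61 clusters on chromosome 2 (Mir466, Mir467 and Mir669), 26 on chromosome 12 (Mir379 and others), 17 on X and 12 more on chromosome 12. The runs rest on distance alone. Neighbours may share a source, so members of a run cannot be counted as independent of each other. The run of Mir99a and Mirlet7c-1 had a median difference of −0.48 in IZ and −0.68 in BZ.

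The most variable cluster was Mir378c, with a pooled SD of 1.70 and values of 2.57, 4.18 and 6.09 in IZ, 4.84, 5.34 and 3.28 in BZ and 5.43, 2.04 and 5.85 in NIZ. It was followed by Mir3079 (1.13), Mir669b (0.89), Mir3088 (0.64), Mir3098 (0.57) and Mir208a (0.52), and all of these but Mir208a were chosen with their values known. The 34 clusters on another chromosome had a median pooled SD of 0.166, against 0.113 for the 570, and 4 of the 6 above 0.5 are among the 34.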

How the data were processed

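The deposited values are log2 signals that the authors made with RMA, per the labels with Affymetrix Expression Console 1.0 and Transcriptome Analysis Console 3.0. RMA corrects the background, equalizes the arrays' distributions and summarizes probes. The array medians of the deposited values still differed, from 4.19 to 4.29. The median difference of all clusters in IZ against NIZ was −0.014, and 0.006 after quantile normalization. A small shift shared by all clusters can thus enter the counts of higher and lower clusters, and cannot be told apart from the scaling. The table holds 65534 clusters on 9 arrays with 0 missing values, and 0 columns were left unused. Names came from the platform annotation (30414 clusters with 1 symbol, 2146 with several and 32974 with none), and chromosomes, hairpins and mature strands from RefSeq on GRCm38.p6. Sequence was missing for some members, which are named only.

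A linear model of zone means was fitted to every cluster in R 4.3.3 with limma 3.58.1 and its moderated test (all 9 arrays, no block, no filter, two-sided), with Benjamini-Hochberg adjustment over all clusters and a threshold of 0.05, and the fit was tested on simulated data. Single clusters were also compared by exact permutation (two-sided), where 3 arrays against 3 cannot go below p = 0.1. The methods' test is the one-way comparison of the zones with corrected pairs.

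The members and lists were chosen with earlier results of these data known. The named clusters are the heart muscle microRNAs, the 12 brightest, the 5 highest and 5 lowest differences per comparison among clusters whose zones do not overlap, list members and members of host pairs; for a symbol with several clusters the brightest was used unless stated.

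The labels number the arrays of each zone from 1 to 3 without tying a number to a mouse. After subtraction of zone means, BZ and NIZ arrays of the same number correlated at 0.62, 0.20 and 0.52 over clusters. IZ and NIZ arrays correlated at 0.36, 0.08 and 0.25, and IZ and BZ arrays at 0.36, 0.06 and 0.20. Over the microRNA clusters alone the BZ and NIZ correlations were 0.31, −0.19 and 0.02. Those of IZ and NIZ were 0.06, 0.10 and 0.23, and those of IZ and BZ were 0.04, −0.11 and −0.16. These values do not establish which arrays share a mouse. The replicate number was therefore left out of the main model and served as a block only among the alternatives. The other alternatives were array weights, a trended robust variance, fits to the compared zones alone or to clusters with 1 symbol, quantile normalization, median centring, removal of dim clusters (33293 stayed, 259 of them microRNAs), the methods' test, and leaving out each array or replicate number. Added after seeing the data were clusters whose further symbols spell the same microRNA another way (886 in all), only clusters on the RefSeq chromosome, and the list counts under other scalings. Precision rests on 3 arrays per zone, and arrays have no read depth.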

Additional observations from a re-analysis of the deposited data

Results flagged for a closer look

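In 2 clusters, all IZ arrays lay on one side of the NIZ mean and all BZ arrays on the other. Mir3106 was at 3.10, 3.23 and 3.22 in IZ and at 3.36, 3.46 and 3.65 in BZ, around a NIZ mean of 3.24, and IZ minus BZ was −0.30. Mir1952 was at 4.18, 4.01 and 3.96 in IZ and at 3.66, 3.84 and 3.79 in BZ, around a NIZ mean of 3.87, and IZ minus BZ was 0.28. In limma the IZ against BZ difference had an unadjusted p of 0.00445 for Mir3106 and 0.00772 for Mir1952, with an adjusted p of 0.943 for both, so neither passed the threshold. Whether the difference from NIZ itself differs between the zones was not tested apart from this.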

How the results depend on the processing

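The number of called microRNA clusters stayed at 0 in all 3 comparisons under every alternative, except without NIZ replicate 3, where Mir143 was called in IZ against NIZ, in a fit that called 216 of all clusters in IZ and 173 in BZ against NIZ (68 and 65 without replicate 3, with 0 microRNA clusters). The range with arrays or replicate numbers left out was thus 0 to 1 in IZ against NIZ and 0 to 0 in the other comparisons. With the replicate number as a fixed block, 0 were called, the smallest adjusted p over all clusters being 0.807, 0.669 and 0.841, and the block changed no other call. The median difference in IZ against NIZ was −0.008 after median centring and −0.011 after quantile normalization, and ran from −0.039 to −0.019 with arrays left out. In IZ against BZ it was 0.003, turning sign, and −0.011, and ran from −0.039 to −0.003. In BZ against NIZ it ran from −0.026 to 0.021. These medians are thus within the reach of the scaling. The counts at an unadjusted p were not stable either: with arrays left out, 2 to 5 were higher and 14 to 39 lower in IZ against NIZ, 5 to 42 higher and 9 to 41 lower in BZ against NIZ, and 4 to 15 higher and 10 to 67 lower in IZ against BZ. The counts of 42 and 67 come without BZ replicate 1, where 6.94% and 11.1% of microRNA clusters stand beside 4.5% and 5.68% of all clusters. The counts of 39 and 41 come without replicate 3, where 6.45% and 6.78% stand beside 5.09% and 4.55%. The median rank of the heart muscle microRNAs was 441 of 605, and 408 of the 570 clusters on the RefSeq chromosome. Of 41 named differences, 0 were called, and 0 to 1 with an array left out. Of 410 alternative values of these, 403 kept their direction and side of the threshold. That count is no test of stability for differences chosen because their zones do not overlap. There, leaving out 1 array cannot turn the direction. For any difference, leaving out an array of the third zone changes nothing. Leaving out 1 array moved 19 of the 41 differences by over 1.5 times. The direction turned for Mir133a-2 in IZ (−0.11 to 0.02) and BZ (−0.20 to 0.18), Mir208b in IZ (−0.02 to 0.13) and Mir499 in BZ (−0.03 to 0.05). The causes were not tested. Among the 259 microRNA clusters that passed the filter on dim clusters, 0 were called as well.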
